A study of Ovis aries with 16 samples.

Results

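A group of 7 genes of innate immune sensing was followed in the hypothalamus of late-gestation fetal sheep: TLR2, TLR4, CD14, MYD88, TNFRSF1A, CD40 and IFNAR1. They were found by their symbol, or an alias, among the probes of an Agilent ovine oligonucleotide array read in a single color, and were 7 of 910 genes that could be named, with 13 of the 15008 distinct probes. Total RNA came from 16 fetuses in 4 groups of 4. The estradiol+BCO group had received estradiol (250 ug per day for 5 days) and then a brachiocephalic occlusion (BCO) of 10 min, an interruption of flow in the artery that supplies the fetal head, with 50 min of recovery. The BCO group had the occlusion without estradiol, the estradiol group had the same estradiol course with a sham occlusion, and the control group had a sham occlusion alone. All fetuses carried catheters, had blood drawn during the experiment, and were 124 to 128 days of gestation (term is 147 days). The hypothalamus was collected 1 h after the occlusion or its sham began. Whole tissue was measured, so fewer cells of a type and less RNA per cell cannot be told apart.

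Toll-like receptors recognise microbial products and molecules released from damaged cells. TLR2 and TLR4 sit at the cell surface, CD14 passes lipopolysaccharide and lipopeptides to them, and MYD88 is the cytoplasmic adaptor that carries their signal towards NF-kappa B. TNFRSF1A is the main receptor for tumor necrosis factor, CD40 is a receptor of the same family that is carried by antigen-presenting cells including activated microglia, and IFNAR1 is a chain of the receptor for type I interferons. In brain, microglia are a main site of TLR2, TLR4 and CD14 expression.

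Each gene had 2 probes of 60 bases, except TNFRSF1A with 1. All 13 were well above background on all 16 arrays by the scanner software's call, and no spot of theirs was saturated or marked as an outlier. The second probes of TLR4, MYD88 and CD40 were dim, with processed signals as low as 22.5, 32.2 and 46.1 units. One TLR4 probe was listed under a cluster identifier and was matched by its description, and the IFNAR1 probes were listed as IFNAR1E and matched by accession. Those of 4 genes are shown because the results turn on how far the probes of a gene repeat each other. Capitals mark a run that both probes of a gene share, and lower case marks all other bases.
CD14 probe 1: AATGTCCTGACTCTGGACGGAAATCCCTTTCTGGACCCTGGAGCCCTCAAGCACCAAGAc
CD14 probe 2: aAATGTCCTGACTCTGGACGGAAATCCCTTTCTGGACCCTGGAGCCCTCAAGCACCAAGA
CD40 probe 1: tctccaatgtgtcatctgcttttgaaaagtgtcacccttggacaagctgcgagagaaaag
CD40 probe 2: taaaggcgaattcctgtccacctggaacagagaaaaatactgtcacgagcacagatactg
TLR2 probe 1: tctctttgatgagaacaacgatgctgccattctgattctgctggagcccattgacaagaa
TLR2 probe 2: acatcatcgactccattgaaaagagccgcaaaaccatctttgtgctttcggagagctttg
MYD88 probe 1: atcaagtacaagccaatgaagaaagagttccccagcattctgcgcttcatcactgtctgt
MYD88 probe 2: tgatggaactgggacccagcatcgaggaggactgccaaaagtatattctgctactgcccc
The CD14 probes share a run of 59 bases, so they are close to a repeat of one measurement. The probes of CD40, TLR2 and MYD88 share no run of 12 bases or more. Those of IFNAR1, not shown, are listed as starting at bases 4780 and 4720 of the transcript. By those positions, and at 60 bases each, they read adjoining stretches. The last bases of probe 2 are also the first bases of probe 1, and whether the probes overlap was not tested. Probe 1 is the brighter of a pair throughout, and represents its gene in counts of genes.

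Values are log2 processed signals minus the array's 75th percentile, which lay between 2047 and 2939 units. Between 77.3% and 86.4% of probes were well above background on an array. Each of 2 slides held 2 arrays per group, and no member probe passed the test between slides (limma, lowest adjusted p = 0.160, TNFRSF1A, -0.29 for slide 2 minus slide 1). Of 20 listed hypothalamic genes 10 had a probe, and 8 of these were well above background on every array, among them AGRP, POMC, OXT and PMCH. The summed level of this list, as multiples of the array's 75th percentile, was 17.4 to 33.0 in estradiol+BCO, 4.87 to 12.5 in BCO, 14.3 to 43.7 in estradiol and 19.3 to 33.0 in control. Its part in the results below was not tested.

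One array stood apart. Replicate 1 of estradiol+BCO had the highest value of all 16 arrays for 4 of the 7 genes (TLR2, TLR4, CD14 and CD40, by their brighter probe; the second TLR4 probe was next to highest). Against the mean of the other 3 arrays of its group it lay 1.34 higher for TLR2 probe 1 and 1.56 higher for probe 2, 0.91 and 0.69 higher for CD40, 0.77 and 0.68 higher for CD14, and 0.44 and 0.74 higher for TLR4. Its lead over all other arrays was small for TLR4 probe 1, -4.30 against -4.32 on BCO replicate 4. Replicate 1 of estradiol+BCO was not high for every member. MYD88 lay 0.22 and 0.096 above the other 3 arrays, and IFNAR1 lay at -0.15 and -0.21 relative to them. The median over the 7 genes was 0.61 on this array, against -0.50 to 0.24 for the same measure on the other 15. Over all tested probes its median was -0.082, and 2.40% of probes lay more than 1 log2 unit above the other 3 arrays, against 0.88% to 3.73% on the other 15. Many of the counts, medians and differences that this array moves are also given without it. Other values include it, among them the differences given for TLR4, TNF, IRF1, FCER1G and ITGB2 and the CD40 interaction.

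Interferon-stimulated genes were far higher on the same array. ISG15, a ubiquitin-like protein induced by interferon, read 7.12, 1.95, -0.37 and 0.47 in estradiol+BCO, against -0.42 to 0.78 in BCO, 0.15 to 1.01 in estradiol and -0.042 to 1.36 in control. MX2, an interferon-induced antiviral GTPase, read 4.45, -0.26, -1.09 and -1.04 in estradiol+BCO and at most 0.20 in the other groups. CXCL10, an interferon-induced chemokine, read 3.82, -1.77, -1.32 and -3.21 in estradiol+BCO and at most -0.65 elsewhere. All 7 tested genes of the type I interferon list lay above the mean of the other 3 arrays of the group, by 0.60 to 6.44. CXCL10 was listed among the NF-kappa B targets, and of the 8 tested genes of that list 2 lay higher on this array (median -0.17). CXCL8, a chemokine, lay at -3.75, ICAM1, an adhesion molecule, at -1.85, and NFKBIA, an inhibitor of NF-kappa B, at -1.30 relative to the other 3 arrays. Probe 1 of IFNAR1 itself was sixth of the 16 arrays there.

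**Figure D1:**
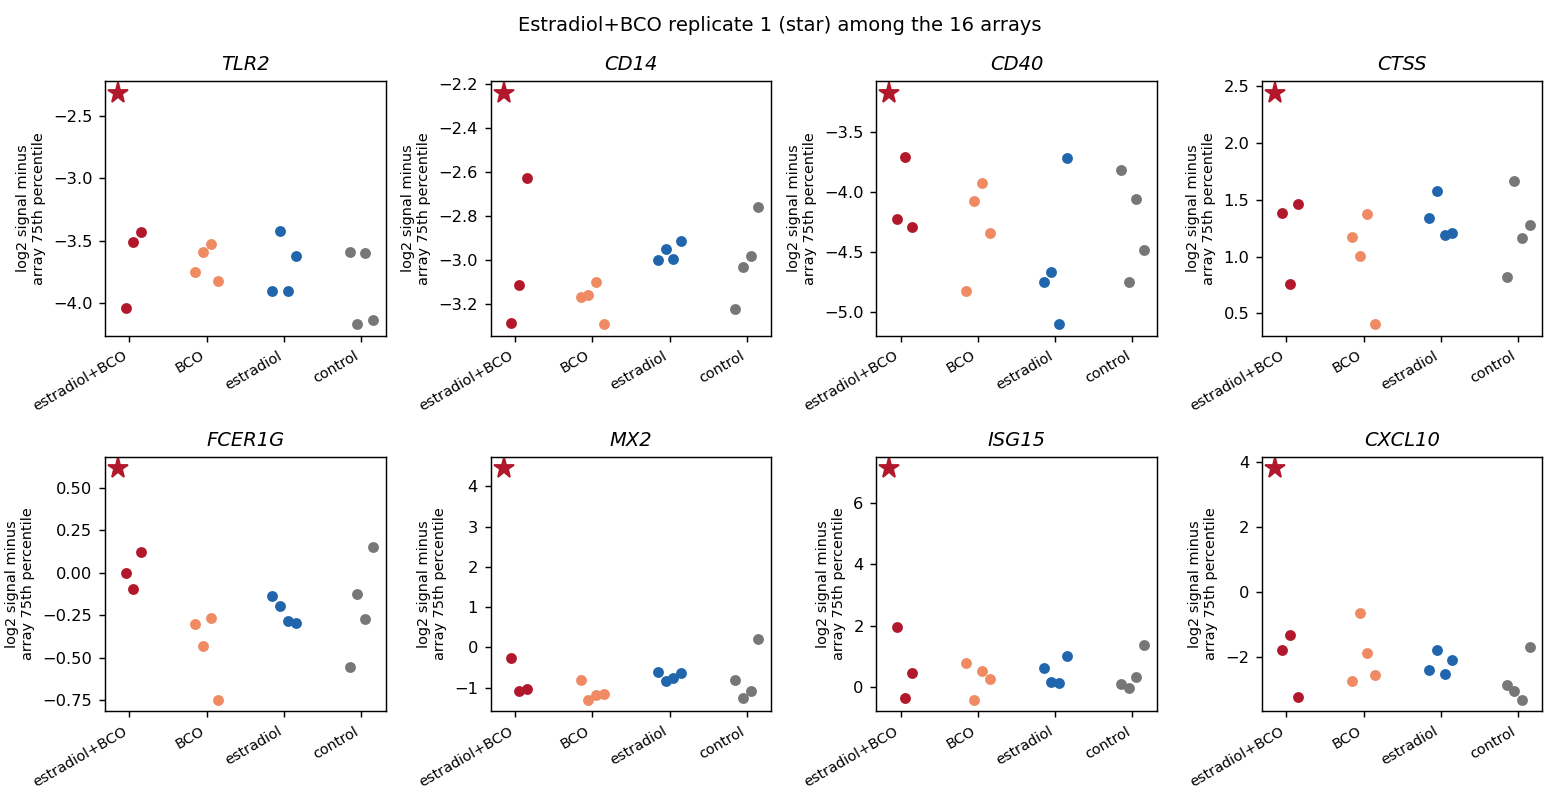
Log2 signal minus the array's 75th percentile (vertical axis) for 3 members, TLR2, CD14 and CD40, 2 microglial genes, CTSS and FCER1G, and 3 interferon-stimulated genes, MX2, ISG15 and CXCL10, with 1 point per array in 4 groups. The star is estradiol+BCO replicate 1, the highest array in all 8 panels, by far the most in MX2 (4.45), ISG15 (7.12) and CXCL10 (3.82).

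None of the 7 genes passed the test in any of 7 comparisons (limma, Benjamini-Hochberg adjusted p under 0.05 over 12937 probes). The test called few probes of any kind. It called 0.00773% of probes, a single probe, for estradiol+BCO against estradiol and for the interaction. With the replicate number as a block it called 0 probes for estradiol+BCO against estradiol. It called 0% for BCO against control, estradiol against control, estradiol+BCO against BCO and each treatment averaged over the other. At an unadjusted p under 0.05, member probes passed in 3 of 13 cases for estradiol+BCO against estradiol, where 7.75% of all probes did, and in 3 of 13 for estradiol+BCO against BCO (9.52% of all). They were 0 of 13 when BCO was set against control (7.17%) and when estradiol was (3.29%). They were 3 of 13 for BCO averaged over estradiol, where 7.53% of all probes passed, 0 of 13 for estradiol averaged over BCO (5.64%) and 1 of 13 for the interaction (7.2%). The 2 probes of a gene are not separate cases. By brighter probe, 2 of 7 genes passed for estradiol+BCO against estradiol and 1 of 7 for estradiol+BCO against BCO. For BCO averaged over estradiol 2 of 7 passed, and for the interaction 1 of 7. Without estradiol+BCO replicate 1 the count was 2 of 13 for estradiol+BCO against estradiol (6.96% of all probes), 1 of 13 for estradiol+BCO against BCO (9.73%) and 2 of 13 for BCO averaged over estradiol (6.66%). The probes no longer under 0.05 were CD40 probe 1 in the first of these, CD14 probe 2 and CD40 probe 2 in the second, and TLR4 probe 1 in the third.

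By direction, 6 of 7 genes had a positive difference for estradiol+BCO against estradiol, with a median of 0.33 against -0.0059 over all probes. With BCO over control it was 3 of 7 (median -0.0098, all probes 0.0091), 4 of 7 for estradiol+BCO against BCO (0.23, all probes -0.020) and 2 of 7 for estradiol against control (-0.11, all probes -0.0081). Without estradiol+BCO replicate 1, the median for estradiol+BCO against estradiol was 0.053 with 5 of 7 genes positive, and that for estradiol+BCO against BCO was 0.014 with 4 of 7. For the other comparisons, 5 of 7 were positive for BCO averaged over estradiol (median 0.17, all probes -0.0022). The counts were 4 of 7 for estradiol averaged over BCO (median 0.057) and 6 of 7 for the interaction (median 0.19). Without that array these became 5 of 7 (median 0.13, all probes 0.0087), 3 of 7 (median -0.033) and 4 of 7 (median 0.023). Positive differences made up 48.8% of all probes for estradiol+BCO against estradiol, 52.2% with BCO over control, 46.3% for estradiol+BCO against BCO and 48% for estradiol against control. They made up 49.4% for BCO averaged over estradiol, 46% for estradiol averaged over BCO and 49.4% for the interaction. The comparisons share groups, so they are not separate evidence.

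One member probe, IFNAR1 probe 1 in estradiol+BCO against BCO, had groups of 4 arrays that did not overlap, as 4.23% of all probes did in either direction. The count was 0 of 13 for estradiol+BCO against estradiol (4.95% of all), BCO over control (3.98%) and estradiol over control (3.17%). For estradiol over control the 13 differences lay between -0.28 (CD40 probe 1) and 0.26 (TLR2 probe 2), all with an adjusted p of 1.00.

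**Figure D2:**
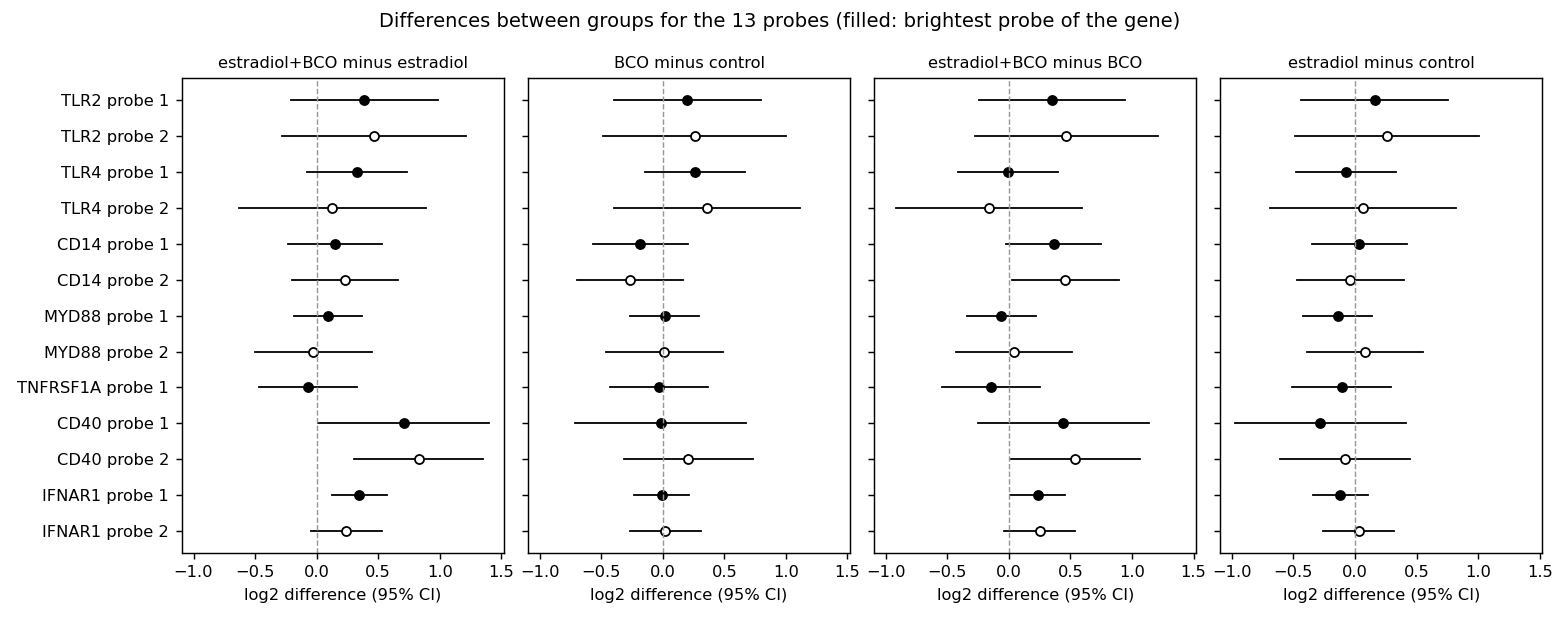
Log2 differences with 95% confidence intervals (horizontal axis) for the 13 probes in 4 comparisons, with the brighter probe of a gene filled. For estradiol+BCO minus estradiol, the intervals of both CD40 probes and of IFNAR1 probe 1 lie above 0, and for BCO minus control and estradiol minus control all intervals include 0.

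TLR2 probe 1 read -2.32, -4.03, -3.51 and -3.43 in estradiol+BCO, against -3.75, -3.59, -3.53 and -3.82 in BCO. It read -3.90, -3.42, -3.90 and -3.62 in estradiol and -3.59, -4.17, -3.60 and -4.13 in control. All 4 groups overlapped, and apart from estradiol+BCO replicate 1 every array lay between -4.17 and -3.42. The difference for estradiol+BCO against estradiol was 0.39 (SE 0.28, adjusted p = 0.774), and 0.053 without replicate 1. For estradiol+BCO against BCO it was 0.35 (SE 0.28, adjusted p = 0.729), and 0.014 without that array. BCO against control gave 0.20 (SE 0.28, adjusted p = 0.972). The TLR2 probes followed each other over the 16 arrays with a Pearson r of 0.97 and a Spearman rho of 0.91.

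TLR4, the receptor for lipopolysaccharide, read -4.30, -5.15, -4.64 and -4.43 in estradiol+BCO, against -5.02, -4.75, -4.38 and -4.32 in BCO. Its values were -5.06, -4.90, -5.09 and -4.78 in estradiol and -5.12, -4.72, -4.75 and -4.95 in control. Of the occluded arrays, 3 of estradiol+BCO and 2 of BCO lay above every sham array, while the lowest array of each group lay between -5.15 and -5.02. The difference for BCO averaged over estradiol was 0.29 (SE 0.13, 95% interval 0.0076 to 0.58, adjusted p = 0.651). It was 0.14 on slide 1 and 0.45 on slide 2, and 0.11 after normexp background correction. The second TLR4 probe gave 0.24 (SE 0.25) for the same comparison, with -0.088 on slide 1, 0.57 on slide 2 and -0.011 after normexp.

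CD14 probe 1 read -2.24, -3.29, -3.12 and -2.63 in estradiol+BCO, against -3.17, -3.16, -3.10 and -3.29 in BCO. In estradiol it read -3.00, -2.95, -3.00 and -2.92, and in control -3.22, -3.03, -2.98 and -2.76. The estradiol+BCO arrays were the most spread (SD 0.48), against an SD of 0.080 in BCO, 0.041 in estradiol and 0.19 in control. Their range overlapped that of each other group, and the ranges of BCO and control overlapped. The difference for estradiol+BCO against BCO was 0.36 (SE 0.18, adjusted p = 0.550) for probe 1 and 0.46 (SE 0.20, adjusted p = 0.496) for the nearly identical probe 2. Without estradiol+BCO replicate 1 these values were 0.17 and 0.29. BCO against control gave -0.18 and -0.27, with intervals of -0.57 to 0.20 and -0.70 to 0.17. The value of probe 1 was -0.036 on slide 1, -0.33 on slide 2 and -0.31 after normexp, and lay between -0.26 and -0.10 with 1 array left out in turn. That of probe 2 lay between -0.40 and -0.17 in the same way.

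MYD88 probe 1 read -4.16, -4.41, -4.31 and -4.41 in estradiol+BCO, -4.35, -4.42, -4.11 and -4.16 in BCO, -4.44, -4.27, -4.46 and -4.48 in estradiol, and -4.14, -3.96, -4.38 and -4.61 in control. All groups overlapped. No comparison exceeded 0.14 in size for this probe, and its residual SD over arrays was 0.18 against a median of 0.25 over all probes. The 95% interval was -0.26 to 0.29 for BCO against control and -0.19 to 0.37 for estradiol+BCO against estradiol. For BCO against control the slides differed in sign. Probe 1 gave -0.33 on slide 1 and 0.36 on slide 2, and probe 2 gave -0.39 and 0.42. The MYD88 probes did not follow each other (Pearson r = 0.31, permutation p = 0.24, Spearman rho = 0.18, permutation p = 0.50, n = 16 arrays). Which of them follows the MYD88 transcript was not tested, and counts of genes use probe 1.

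TNFRSF1A, read by 1 probe, gave -3.82, -4.38, -4.47 and -4.42 in estradiol+BCO, -4.16, -3.64, -4.34 and -4.36 in BCO, -4.02, -4.01, -4.41 and -4.37 in estradiol, and -3.88, -4.34, -4.19 and -3.97 in control. All groups overlapped. Every comparison was at most 0.15 in size, the largest being -0.15 for estradiol+BCO against BCO (SE 0.19, adjusted p = 0.851). That value was -0.30 without estradiol+BCO replicate 1.

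CD40 had the largest difference of the 7 genes for estradiol+BCO against estradiol. Probe 1 read -3.17, -4.23, -3.71 and -4.30 in estradiol+BCO, -4.83, -4.07, -3.93 and -4.34 in BCO, -4.75, -4.67, -5.10 and -3.71 in estradiol, and -3.81, -4.76, -4.06 and -4.48 in control. Probe 2 read -3.95, -4.70, -4.43 and -4.79 in estradiol+BCO, against -5.41, -5.07, -4.42 and -5.14 in BCO. It read -5.49, -5.34, -5.65 and -4.71 in estradiol and -5.28, -5.38, -4.90 and -5.30 in control. For both probes 3 of the 4 estradiol arrays lay below all 4 estradiol+BCO arrays, and replicate 4 of estradiol lay among them. The difference for estradiol+BCO against estradiol was 0.71 (SE 0.32, 95% interval 0.013 to 1.40, adjusted p = 0.635) for probe 1 and 0.83 (SE 0.25, 95% interval 0.30 to 1.35, adjusted p = 0.419) for probe 2.

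The CD40 values were 1.01 and 1.09 on slide 1 against 0.41 and 0.57 on slide 2. They were 0.48 and 0.66 without estradiol+BCO replicate 1, and 0.29 and 0.20 after normexp background correction. Normexp was run with an offset of 50 units, which shrinks log2 differences between low signals. Probe 2 read 85.0 to 161 units in estradiol+BCO and 46.1 to 95.3 in estradiol. The part of the offset in the smaller values was not tested. For BCO against control the same probes gave -0.016 and 0.21. The interaction, which asks whether the occlusion difference depended on estradiol, was 0.72 (SE 0.46, adjusted p = 0.817) for probe 1 and 0.62 (SE 0.35, adjusted p = 0.774) for probe 2.

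IFNAR1 probe 1 read 3.17, 3.23, 3.40 and 3.31 in estradiol+BCO, 3.04, 2.99, 3.13 and 3.01 in BCO, 2.92, 2.75, 2.87 and 3.18 in estradiol, and 3.23, 2.99, 3.09 and 2.89 in control. All 4 estradiol+BCO arrays lay above all 4 BCO arrays, a separation in that direction that 1.65% of all probes showed. One estradiol array and 1 control array lay within their range. The difference was 0.34 (SE 0.10, 95% interval 0.12 to 0.57, adjusted p = 0.431) for estradiol+BCO against estradiol and 0.23 (SE 0.10, 95% interval 0.011 to 0.46, adjusted p = 0.502) for estradiol+BCO against BCO. BCO against control gave -0.0098, with an interval of -0.23 to 0.21. The interaction was 0.35 (SE 0.15, adjusted p = 0.630).

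Unlike those of TLR2, CD14 and CD40, the IFNAR1 differences were as large without estradiol+BCO replicate 1, at 0.38 against estradiol and 0.27 against BCO. They were 0.36 on slide 1 and 0.33 on slide 2 for estradiol+BCO against estradiol, and 0.33 after normexp. The second probe, listed at an adjoining stretch of the transcript, gave 0.24 (SE 0.14) against estradiol and 0.25 (SE 0.14) against BCO. Its estradiol+BCO and BCO arrays overlapped, with a lowest value of 2.55 in estradiol+BCO and a highest of 2.56 in BCO. Probe 1 had the smallest residual SD of the members, 0.13.

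**Figure D3:**
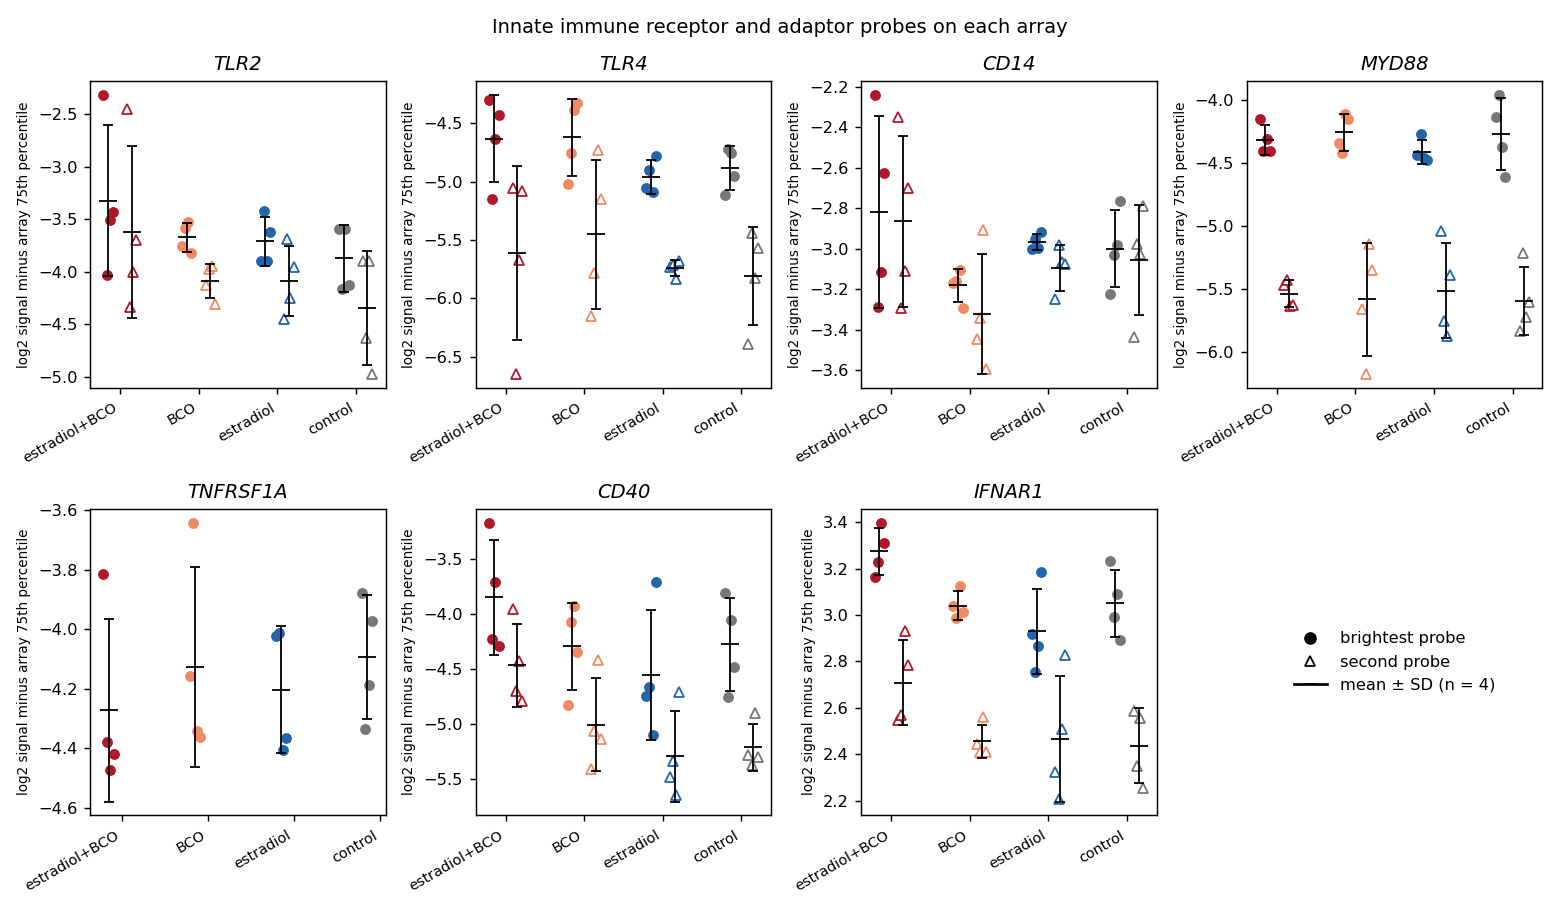
Log2 signal minus the array's 75th percentile (vertical axis, a separate scale per gene) for every array in 4 groups, with circles for the brighter probe, triangles for the second and bars for the mean ± SD of 4 arrays. IFNAR1 probe 1 in estradiol+BCO (3.17 to 3.40) lies above BCO (2.99 to 3.13), while for the second IFNAR1 probe these groups overlap. For TLR2, 1 estradiol+BCO array sits far above the rest (-2.32).

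The 2 probes of a gene followed each other closely for 5 of 6 genes over the 16 arrays. For CD14 this is no separate check, since its probes share a run of 59 bases. Pearson r was 0.97 for TLR2, 0.91 for CD14, 0.89 for IFNAR1, 0.87 for TLR4 and 0.87 for CD40 (permutation p, adjusted over the 6 pairs, at most 2.4e-05; 1e-05 before adjustment is the smallest that the permutations can give). Spearman rho for these 5 lay between 0.85 and 0.91 (permutation p, adjusted, at most 7.2e-05). Leaving out the 2 arrays farthest from the median of probe 1, r was 0.76 for CD40 and 0.80 to 0.93 for TLR2, TLR4, CD14 and IFNAR1. For MYD88 it was 0.20.

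**Figure D4:**
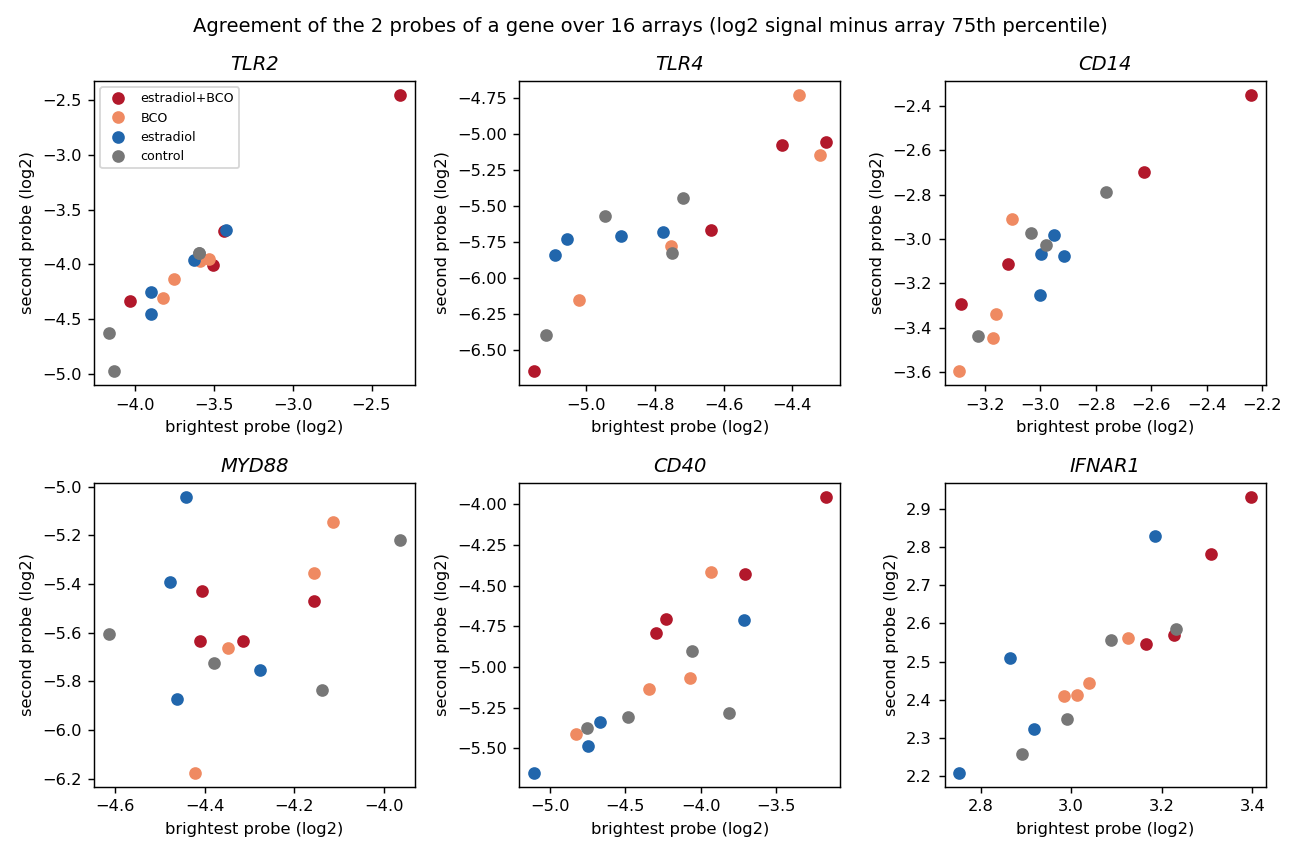
Second probe against brighter probe (both log2 signal minus the array's 75th percentile) for the 6 genes with 2 probes, 1 point per array, colored by group. Points lie along a line for TLR2 (r = 0.97), CD14 (0.91), IFNAR1 (0.89), TLR4 (0.87) and CD40 (0.87) and scatter for MYD88 (0.31).

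As a description over the 16 arrays, which share normalization and treatment groups, the closest members were TLR2 and CD40 (Pearson r = 0.70, 0.51 without estradiol+BCO replicate 1), CD40 and IFNAR1 (0.67, 0.73 without it) and TLR2 and CD14 (0.66, 0.11 without it). Among 790 other named genes, the 2 most like TLR2 were PSMB8, a subunit of the immunoproteasome (0.86, 0.40 without that array), and RTP4 (0.84, 0.24 without it). CD14 was most like LOC443295 (0.83, 0.58 without it) and FCER1G, the gamma chain shared by Fc receptors (0.83, 0.66 without it). TLR4 was most like CD247 (0.81) and CREM (0.80), MYD88 like RCAN1 (0.66) and SLC25A38 (0.60), and TNFRSF1A like CBX5 (0.78) and CCND2 (0.74). CD40 was most like CLDN3 (0.81) and TGFB1 (0.73), and IFNAR1 like DGAT1 (0.83) and PDXK (0.78).

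Of the listed genes around these receptors, 30 of 112 had a tested probe and 0 passed in any of the 7 comparisons. The tested genes were 11 of 33 for Toll-like and interleukin-1 receptor signalling, 3 of 20 for the tumor necrosis factor family, 7 of 30 for the type I interferon pathway, 1 of 12 for NF-kappa B subunits and inhibitors, and 8 of 17 for NF-kappa B target cytokines and adhesion genes. For estradiol+BCO against estradiol, 24 of 30 differences were above 0, as were 48.8% of all probes, and their median was 0.25. Without estradiol+BCO replicate 1 the count was 14 of 30 and the median -0.037. For estradiol+BCO against BCO, 24 of 30 were above 0 against 46.3% of all probes, with a median of 0.48. Without that array 22 of 30 were above 0 and the median was 0.20. With BCO over control 14 of 30 were above 0 (52.2% of all probes).

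TNF, the ligand of TNFRSF1A, read -3.87, -4.84, -4.56 and -4.83 in estradiol+BCO, against -4.93, -5.43, -5.25 and -5.95 in estradiol. These groups did not overlap, as 2.18% of all probes did not in that direction, and the difference was 0.86 (SE 0.30, adjusted p = 0.499). The TNF signal was low. The dim second CD40 probe read -5.49, -5.34, -5.65 and -4.71 in estradiol. IRF1, a transcription factor induced by interferons and NF-kappa B, read -0.77, -1.87, -1.75 and -3.07 in estradiol+BCO, against -2.31, -4.13, -3.64 and -4.45 in estradiol. These groups overlapped, and the difference was 1.77 (SE 0.55, adjusted p = 0.436). The fit dropped BCO replicate 3 of this gene, whose spot was marked as an outlier. IL1RN, the antagonist of the interleukin-1 receptor, was well above background on 2 of 4 estradiol+BCO arrays and 0 of 4 BCO arrays, so its difference (adjusted p = 0.421) is given no size. SELP, an adhesion molecule of activated endothelium, was dim in control, at -5.74, -5.10, -5.86 and -6.64. It gave 1.58 (SE 0.47, adjusted p = 0.493) for BCO against control, with 0.28 on slide 1 and 2.87 on slide 2. IL6, a cytokine, gave -0.58 (SE 0.18, adjusted p = 0.493) in the same comparison.

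Of 4 microglial genes, 3 were also higher on estradiol+BCO replicate 1 than the mean of the other 3 arrays of its group. Of 18 listed markers of microglia and macrophages 4 had a probe (CTSS, FCER1G, ITGB2 and ITGAM), all well above background on every array. Their summed level was 3.68 to 8.21 in estradiol+BCO, 2.49 to 4.29 in BCO, 3.85 to 4.88 in estradiol and 3.22 to 5.13 in control. The sum is of levels before the log, so it is weighted towards CTSS, the brightest of the 4. ITGAM, at -4.78 on estradiol+BCO replicate 1, adds little to it. CTSS, a lysosomal protease of microglia, read 2.45, 1.39, 0.76 and 1.46 in estradiol+BCO, and lay between 0.40 and 1.67 on all other arrays outside that group. On estradiol+BCO replicate 1, FCER1G and ITGB2 were also the highest of 16 arrays, while ITGAM, an integrin of microglia and granulocytes, was 0.35 below the mean of the other 3. The lead of ITGB2 was small, 0.25 against 0.23 on estradiol+BCO replicate 4. FCER1G and ITGB2 gave 0.60 (SE 0.17, adjusted p = 0.280) and 0.56 (SE 0.17, adjusted p = 0.312) for estradiol+BCO against BCO. The part of these cells in the values of TLR2, TLR4, CD14 and CD40 was not tested. Of the 15 lymphocyte and leukocyte markers 5 had a probe, 3 of them well above background on every array, and CD4 was above it on 0 arrays.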

How the data were processed

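Hypothalamic RNA (500 ng per array, labeled with Cy3) of 16 fetal sheep was hybridized by the authors to Agilent design 019921, per the labels' protocols and the file headers. The deposited scanner files give each feature's processed signal as an intensity, made with Feature Extraction 10.1.1.1, per the file headers. The deposited value table holds log2 values, which a comparison with the scanner files showed to be log2 of the processed signals centred on each array's median feature, so scale, centring and direction were known. The labels name no test.

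Of 15744 features 15208 were not controls. Spots marked as outliers (2 to 36 per array) were set to missing, spots of a probe were averaged on the log2 scale, and the array's 75th percentile was subtracted. Probes well above background on at least 4 of 16 arrays (12937) were tested with limma 3.58.1 in R 4.3.3, with 4 group means over all arrays, 2-sided, and Benjamini-Hochberg adjustment over all tested probes. Genes were named through a table for assembly ARS-UI_Ramb_v3.0, used for names alone: 713 probes by accession, 518 by symbol or synonym, and 223 kept the name of the files. The array probes carry no genome position that could be used here. The fit was tested on simulated data. The number of arrays limits the precision.

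The members, lists and tests were chosen with earlier results of these data known. Named genes were all member probes, up to 2 genes with the lowest p per list and comparison, and the 2 most correlated named genes per member. Alternatives were quantile normalization, median centring, normexp (offset 50), no filter, a filter on all 16 arrays, slide or replicate number as a block, each slide alone, the value table, robust moderation, only the groups compared, the mean of a gene's probes, and leaving out each array.

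The labels give no basis for pairing by replicate number. Deviations of same-numbered arrays, which also share a slide, correlated above 0.1 in all 4 pairs of estradiol+BCO with estradiol (0.11 to 0.12), so its count with the replicate number as a block is given beside the count without it. They did so in 3 of 4 pairs for BCO with control, estradiol with control and estradiol+BCO with BCO.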

Additional observations from a re-analysis of the deposited data

Results flagged for a closer look

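TNFRSF1A read -3.82 on estradiol+BCO replicate 1, against -4.38, -4.47 and -4.42 on the other 3 arrays of that group. The gap to the nearest array was large relative to the range of the group by Dixon's criterion for 4 samples. This was 1 of 52 sets of 4 arrays examined, and chance marks about 1 in 20. The same array was the highest of 16 for TLR2, TLR4, CD14 and CD40, whose groups did not meet the criterion.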

How the results depend on the processing

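The count of member genes past the threshold was 0 in all 7 comparisons and under every alternative run, 28 or 29 per comparison. Counts over all probes moved. On slide 2 alone, 14 probes passed with BCO over control, 14 with estradiol+BCO over BCO and 1 with estradiol over control, where the fit of all arrays gave 0. On slide 1 alone 1 passed for estradiol averaged over BCO. With only the groups compared 3 passed for BCO against control. The single probe of estradiol+BCO against estradiol gave 0 under median centring, on either slide alone, with the value table, with only the groups compared and with the replicate number as a block. For the interaction, 3 probes passed with slide as a block and 3 with the replicate block, and 0 under quantile normalization, median centring, no filter, either slide alone or the value table. Leaving out 1 array in turn gave 0 to 6 probes with BCO over control, 0 to 5 with estradiol+BCO over BCO, 0 to 1 for estradiol+BCO against estradiol and for estradiol averaged over BCO, and 0 to 3 for the interaction. Over all groups, 3 of 16 arrays correlated best with their own replicate number, and the replicate block changed no other count of calls.

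No member value passed the threshold, and the sign of small ones turned with the setting. The cause was not tested. Normexp also moved the median over all probes. It was -0.077 for estradiol+BCO against estradiol, 0.051 for estradiol against control and -0.078 for the interaction. The main setting gave -0.0059, -0.0081 and -0.0045. For the other comparisons the normexp median over all probes lay between -0.039 and 0.016. BCO against control turned sign for IFNAR1 probe 2 at -0.041, MYD88 probe 1 at -0.33, MYD88 probe 2 at -0.39, TLR4 probe 2 at -0.047 and TNFRSF1A at 0.21 on slide 1 alone and for CD40 probe 1 at 0.13 and IFNAR1 probe 1 at 0.079 on slide 2 alone. BCO against control with 1 array left out in turn spanned 0 for CD40 probe 1 between -0.17 and 0.16, IFNAR1 probe 1 between -0.063 and 0.050, IFNAR1 probe 2 between -0.041 and 0.068, MYD88 probe 1 between -0.099 and 0.12, MYD88 probe 2 between -0.14 and 0.21 and TNFRSF1A between -0.19 and 0.047. Estradiol+BCO against estradiol turned sign for TLR4 probe 2 at -0.13 on slide 1 alone and for MYD88 probe 2 at 8.8e-05 on slide 2 alone. Estradiol+BCO against estradiol with 1 array left out in turn spanned 0 for CD14 probe 1 between -0.043 and 0.31, MYD88 probe 2 between -0.15 and 0.13 and TLR4 probe 2 between -0.058 and 0.47. Estradiol against control turned sign for CD14 probe 2 at 0.089, IFNAR1 probe 2 at -0.20 and TNFRSF1A at 0.088 on slide 1 alone and for CD14 probe 1 at -0.085, IFNAR1 probe 1 at 0.035, MYD88 probe 1 at 0.028 and TLR4 probe 2 at -0.062 on slide 2 alone. Estradiol against control with 1 array left out in turn spanned 0 for CD14 probe 1 between -0.041 and 0.11, CD14 probe 2 between -0.16 and 0.052, CD40 probe 2 between -0.28 and 0.037, IFNAR1 probe 2 between -0.091 and 0.12, MYD88 probe 2 between -0.078 and 0.21 and TLR4 probe 2 between -0.13 and 0.19. Estradiol+BCO against BCO turned sign for MYD88 probe 1 at 0.10, TLR4 probe 1 at 0.16 and TLR4 probe 2 at 0.11 on slide 1 alone and for MYD88 probe 2 at -0.38 on slide 2 alone. Estradiol+BCO against BCO with 1 array left out in turn spanned 0 for MYD88 probe 2 between -0.16 and 0.19, TLR4 probe 1 between -0.14 and 0.16, TLR4 probe 2 between -0.39 and 0.18 and TNFRSF1A between -0.30 and 0.015. BCO averaged over estradiol turned sign for CD14 probe 1 at 0.088, CD14 probe 2 at 0.054, MYD88 probe 1 at -0.13, TLR4 probe 2 at -0.088 and TNFRSF1A at 0.065 on slide 1 alone and for MYD88 probe 2 at 0.21 on slide 2 alone. BCO averaged over estradiol with 1 array left out in turn spanned 0 for CD14 probe 1 between -0.11 and 0.062, CD14 probe 2 between -0.10 and 0.053, MYD88 probe 1 between -0.0033 and 0.11 and MYD88 probe 2 between -0.081 and 0.091. Estradiol averaged over BCO turned sign for IFNAR1 probe 1 at -0.045, IFNAR1 probe 2 at -0.035, TLR4 probe 1 at 0.051 and TLR4 probe 2 at 0.16 on slide 1 alone and for CD40 probe 1 at -0.0023 and MYD88 probe 2 at -0.18 on slide 2 alone. Estradiol averaged over BCO with 1 array left out in turn spanned 0 for CD40 probe 1 between -0.060 and 0.17, MYD88 probe 2 between -0.037 and 0.13, TLR4 probe 1 between -0.11 and 0.046 and TLR4 probe 2 between -0.16 and 0.13. The interaction turned sign for MYD88 probe 2 at 0.34 on slide 1 alone and for MYD88 probe 1 at -0.26, TLR2 probe 2 at -0.053, TLR4 probe 1 at -0.097 and TNFRSF1A at 0.21 on slide 2 alone. The interaction with 1 array left out in turn spanned 0 for MYD88 probe 1 between -0.025 and 0.19, MYD88 probe 2 between -0.24 and 0.12, TLR2 probe 1 between -0.15 and 0.43, TLR2 probe 2 between -0.18 and 0.44, TLR4 probe 1 between -0.073 and 0.24, TLR4 probe 2 between -0.46 and 0.12 and TNFRSF1A between -0.19 and 0.12. Under normexp background correction the sign turned for BCO against control MYD88 probe 2 at -0.0012, for estradiol+BCO against estradiol MYD88 probe 1 at -0.075 and TLR4 probe 2 at -0.15, for estradiol against control CD14 probe 2 at 0.013, CD40 probe 2 at 0.15, IFNAR1 probe 2 at -0.0077, MYD88 probe 1 at 0.021, TLR4 probe 1 at 0.12 and TNFRSF1A at 0.038, for estradiol+BCO against BCO TLR4 probe 2 at 0.0016, for BCO averaged over estradiol MYD88 probe 1 at -0.019 and TLR4 probe 2 at -0.011, for estradiol averaged over BCO TLR4 probe 1 at 0.028 and TLR4 probe 2 at 0.14, for the interaction MYD88 probe 1 at -0.11 and TLR4 probe 1 at -0.18. Under quantile normalization the sign turned for BCO against control CD40 probe 1 at 0.0076, for estradiol+BCO against estradiol MYD88 probe 2 at 0.037, for estradiol+BCO against BCO TLR4 probe 1 at 0.027, for BCO averaged over estradiol MYD88 probe 2 at 0.042. Under median centring the sign turned for BCO against control MYD88 probe 2 at -0.0015, for estradiol+BCO against BCO TLR4 probe 1 at 0.027. Under the log2 value table of the series the sign turned for BCO against control MYD88 probe 1 at -0.0039 and MYD88 probe 2 at -0.0066, for estradiol+BCO against BCO TLR4 probe 1 at 0.023. Chosen after seeing the data, leaving out estradiol+BCO replicate 1 turned the median of the 30 pathway genes to -0.037 for estradiol+BCO against estradiol and to -0.045 for BCO averaged over estradiol. The median stayed above 0 for estradiol averaged over BCO (0.31 with the array, 0.13 without it) and for the interaction (0.26 and 0.087).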
